A study of Equus caballus with 13 samples.

Results

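A set of 10 antioxidant and redox defence genes was followed across the horse chondrocyte groups by their symbols: SOD1, SOD2, SOD3, CAT, GPX1, GPX3, GPX4, HMOX1, NQO1 and TXNIP. Of these, 8 were listed in both RNA kinetics tables of the series, which held 11056 genes for the age comparison and 11249 for the sex comparison. SOD2 and GPX1 were listed by symbol in neither table and are not analysed here. Chondrocytes are the cells that make and maintain cartilage. They were taken from cartilage of wild-type (WT) horses that were old females, young females or young males, kept in culture for 2 days and labelled for 4 h with 4-thiouridine (4sU), a uridine analogue that marks newly made RNA. The labels give 5 old female, 5 young female and 3 young male samples, and every group received 4sU. Ages in years, the joint of origin and whether each culture came from its own animal were not given in the sources used here.

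Each table gave, for each gene, the authors' single estimate of RNA synthesis rate and of RNA half-life for each of its 2 groups. Values per sample were not given, so no spread between samples accompanies any value and no difference below was tested; differences are described by size. The depth of the samples is unknown. Half-lives are read as hours and synthesis rates as arbitrary units. The product of both, divided by ln 2, is called the implied level: the RNA level a gene would hold if synthesis and decay were in balance. Synthesis rates were not stated to be per transcript length, so they and the implied levels are compared between groups and never between genes. Sums over cell type markers weight each gene by its listed level. A gene is counted as past the threshold when its log2 ratio is at least 1 in either direction, a 2-fold difference. Effects of batch cannot be told apart from those of group: 12 batch labels covered 13 samples, and batch 10 alone spanned more than 1 group. All 10 chondrocyte markers examined, ACAN, COL2A1 and SOX9 among them, were listed in both tables. Of 8 leukocyte markers only CD14 was listed, of 5 endothelial markers only VWF, and of 3 erythroid markers none. In bulk cultures such as these, fewer cells of a type and less RNA per cell cannot be told apart.

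Superoxide, a by-product of respiration and of oxidase enzymes, is converted to hydrogen peroxide by the superoxide dismutases, and the peroxide is removed by catalase, glutathione peroxidases and peroxiredoxins. The transcription factor NRF2 (gene NFE2L2), held in check by KEAP1, drives many of the enzymes that detoxify quinones, break down haem and supply glutathione. Cartilage has little oxygen supply, and loss of the extracellular superoxide dismutase from it is a known feature of joint disease.

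The 8 genes differed widely in half-life, with 6 long-lived, HMOX1 near the middle of all genes and TXNIP short-lived. In young female cells the half-lives of SOD1, SOD3, CAT, GPX3, GPX4 and NQO1 all exceeded 20 h. In the age table they ran from 21.4 h for NQO1 to 37.1 h for GPX4, in a table where 9.20% of all genes exceeded 20 h and the median was 3.64 h. HMOX1, at 3.11 h, lay near that median, with 44.9% of genes shorter. TXNIP, at 0.570 h, was the 128th shortest of 11056 genes. If RNA decays at a constant rate, a half-life of 37.1 h corresponds to 7.19% of a gene's RNA being made within the 4 h of labelling, one of 3.11 h to 58.9%, and one of 0.570 h to 99.2%.

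**Figure D1:**
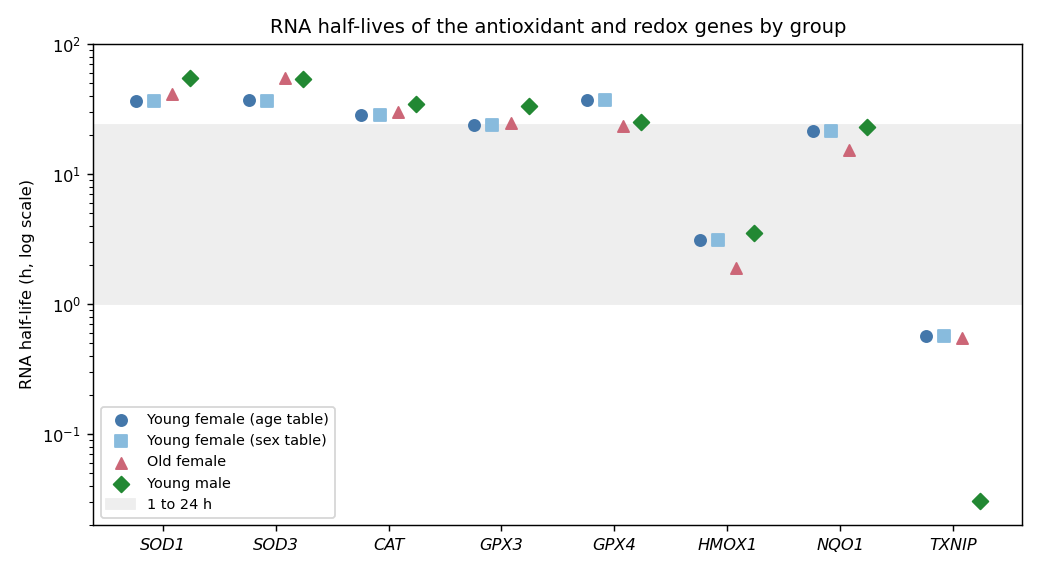
RNA half-life in hours (log scale) of the 8 listed genes, with 1 point per group and table; the grey band spans 1 to 24 h, the range that 4 h of labelling was taken to resolve. HMOX1 and NQO1 lie in the band in all groups, TXNIP lies below it, and the young male TXNIP point, at 0.0304 h, stands apart from the other 3.

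The young female samples entered both tables, so each gene has a second young female estimate made from the same samples. For the 8 genes the 2 half-life estimates differed by 0.0563% to 0.725%, and the implied levels by a near-constant offset of 0.07 log2 units. The repeat holds no variation between animals. Its error depended on the half-life. Among the 809 shared genes of 24 h or more, the 95th percentile of the deviation between estimates was 0.09 log2 units. It was 0.23 among 470 genes of 0.5 to 1 h and 7.06 among the 140 genes under 0.5 h.

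Old female cells were compared with young female cells, which addresses the effect of age. None of the 8 genes was past the threshold in half-life, synthesis rate or implied level, against 3.53%, 7.52% and 4.12% of all genes. The differences nearest to it were the implied levels of CAT (1.98-fold higher) and GPX3 (1.89-fold higher). At a threshold of 0.5 log2 units the members past it numbered 3 in half-life, 4 in synthesis rate and 3 in implied level, against 13.4%, 23.0% and 15.6% of all genes. The 8 genes had a median log2 ratio of −0.01 in half-life, 0.26 in synthesis rate and 0.06 in implied level, beside −0.08, 0.08 and 0.00 over all genes.

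Of the superoxide dismutases, SOD1, the cytosolic copper-zinc enzyme, had a synthesis rate of 133 in young and 97.5 in old cells. Its half-life was 36.6 h in young and 41.3 h in old cells, and its implied level was 1.21-fold lower in old cells. SOD3, the copper-zinc enzyme secreted into the matrix, had the longer half-life in old cells, 55.1 against 36.8 h. Its log2 ratio of half-life, 0.58, was above that of 96.7% of genes. The SOD3 synthesis rate was 154 in old and 176 in young cells, and the implied level was 1.31-fold higher in old cells. The 2 dismutases thus had lower synthesis rates and longer half-lives in old cells, and opposite directions in implied level.

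The peroxide-removing enzymes CAT, GPX3 and GPX4 shared a higher synthesis rate in old cells, with log2 ratios of 0.89, 0.88 and 0.89. CAT encodes catalase, the peroxisomal enzyme that splits hydrogen peroxide, and its synthesis rate was 525 in old and 283 in young cells. Its half-life was 30.2 h in old and 28.3 h in young cells. Its log2 ratio of implied level was 0.99, above that of 97.8% of genes, and it was 1.05 when set against the second young female estimate. CAT was the one member that this substitution took past the threshold. GPX3, the secreted glutathione peroxidase, had a synthesis rate of 2982 in old and 1615 in young cells with half-lives of 24.5 and 23.9 h. For CAT and GPX3 the difference in implied level, as listed, therefore lay almost wholly in the synthesis rate. Both CAT half-lives and the old GPX3 half-life were above 24 h, beyond the range that 4 h of labelling was taken to resolve.

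GPX4, the selenoenzyme that reduces lipid peroxides in membranes, differed from these in its half-life. The half-life of GPX4 was 23.3 h in old and 37.1 h in young cells, while its synthesis rate was 124 in old and 67.1 in young cells. These opposed each other, and the implied level was 1.16-fold higher in old cells. Half-life and synthesis rate were opposed in 4 of the 8 members, beside 70.4% of all genes, and in the sex comparison in 5 of 8, beside 76.2%. After centring on the medians of all genes these counts became 5 of 8 for age, beside 68.7%, and 3 of 8 for sex, beside 68.0%, so their order was not stable.

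HMOX1, the inducible enzyme that opens the haem ring and an NRF2 target, had a half-life of 1.89 h in old and 3.11 h in young cells. Its log2 ratio of half-life, −0.72, was the lowest of the 8, and 4.06% of all genes lay below it. The synthesis rate of HMOX1 was 30353 in old and 19674 in young cells, and the implied level was 0.936 of the young value. HMOX1 RNA was thus listed with faster turnover in old cells at nearly the same level. Both values lie within the range the labelling can resolve.

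NQO1, a quinone reductase and another NRF2 target, had a half-life of 15.2 h in old and 21.4 h in young cells. Its synthesis rate was 157 in old and 168 in young cells, and its implied level was 1.51-fold lower in old cells, the largest difference downward among the 8. TXNIP, an inhibitor of thioredoxin that also limits glucose uptake, was close between the groups: 0.551 against 0.570 h in half-life and 15335 against 17869 in synthesis rate. Its implied level was 1.20-fold lower in old cells. The log2 ratio of the TXNIP half-life was −0.05, or 0.04 after centring on the median of all genes, so it had no stable direction.

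The summed implied level of the chondrocyte markers was 1637920 in old and 1801850 in young cells. Levels of 6 of the 10 markers were lower in old cells, beside 5454 of 11056 over all genes. HAPLN1 alone passed the threshold, at −1.01, against 4.12% of all genes, and the median of the 10 log2 ratios was −0.31. COMP was higher, at 632950 in old and 356826 in young cells. The sum of the 5 listed fibroblast or synovial markers of 7 was 128820 in old and 211597 in young cells, with PRG4 and DPT not listed. The 3 listed mural and smooth muscle markers of 5 summed to 5644 in old and 22187 in young cells, with ACTA2 and MYH11 not listed. TAGLN carried this difference, at 2765 against 19000.2, while RGS5 and DES were 1.23- and 1.09-fold lower in old cells. The part of these markers in the values of the 8 genes was not tested.

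**Figure D2:**
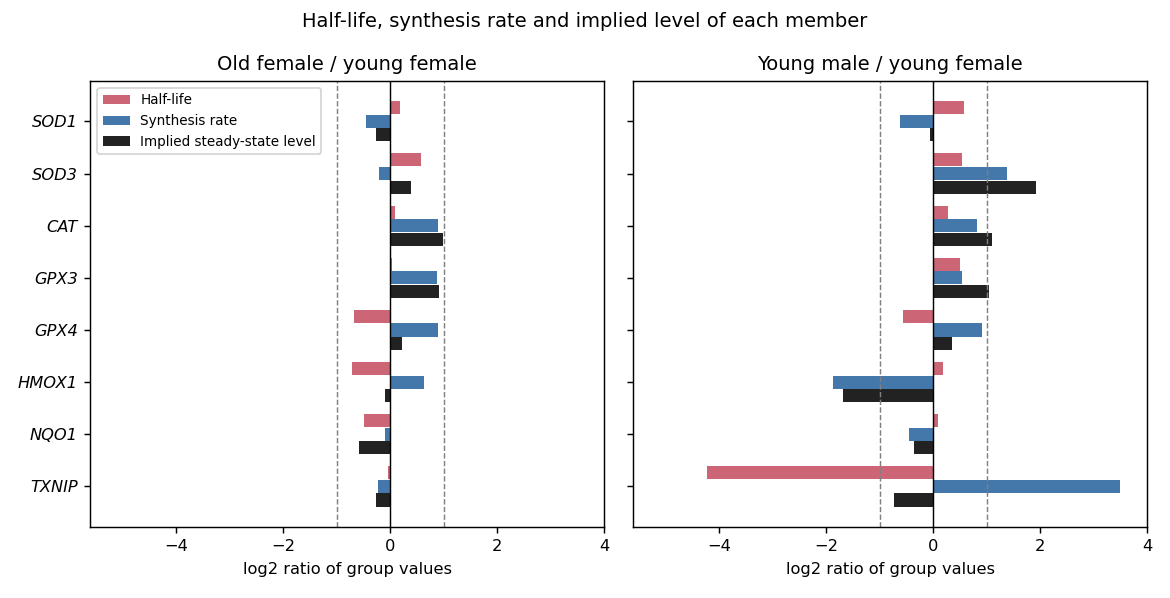
log2 ratios of half-life, synthesis rate and implied level for the 8 genes, old female over young female (left) and young male over young female (right); each bar is 1 ratio of the authors' group values and the dashed lines mark a 2-fold difference. No bar passes the lines on the left, while SOD3, CAT, GPX3, HMOX1 and TXNIP pass them on the right.

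Young male cells were then compared with young female cells, which addresses the effect of sex. The young female samples are those of the age comparison, so both sets of ratios share their reference. For implied level, 4 of the 8 genes were past the threshold, SOD3, CAT and GPX3 higher and HMOX1 lower in male cells, against 4.61% of all genes. For synthesis rate 3 were past it, SOD3 and TXNIP higher and HMOX1 lower, against 12.2% of all genes. For half-life 1 was past it, TXNIP, shorter, against 7.58% of all genes. Half-lives of all genes were shifted in this table, with a median log2 ratio of 0.27, and synthesis rates by −0.28, while implied levels were centred at 0.01. Relative to these shifts 5 of the 8 synthesis rates were past the threshold, CAT (1.10) and GPX4 (1.19) being added, against 9.87% of all genes centred in the same way.

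SOD3 had the highest male to young female ratio of implied level among the 8. Its synthesis rate was 437 in male and 169 in young female cells, a log2 ratio of 1.37, or 1.65 relative to all genes. Its half-life was 53.7 h in male and 36.7 h in young female cells. The log2 ratio of 0.55 was 0.27 relative to all genes and 0.04 relative to genes of like half-life. The implied level was 3.79-fold higher in male cells, the 66th highest ratio of 11249 genes. SOD1 had nearly the same half-lives as SOD3, 54.5 h in male and 36.5 h in young female cells. The synthesis rate of SOD1 was instead lower, 82.4 against 127, and its implied level was 1.04-fold lower. The 2 copper-zinc dismutases thus differed in the sex comparison by synthesis rate and hardly by half-life.

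CAT had a synthesis rate of 475 in male and 269 in young female cells and a half-life of 34.6 against 28.5 h. Its implied level was 2.15-fold higher in male cells, with 2.36% of genes above it. GPX3 had a synthesis rate of 2253 against 1545 and a half-life of 33.6 against 23.8 h, and its implied level was 2.05-fold higher. Neither passed the threshold in implied level when genes were compared with others of like half-life, where the log2 ratios were 0.68 for CAT and 0.61 for GPX3. Against the second young female estimate the GPX3 ratio was 0.97. SOD3 remained past the threshold in both cases, at 1.49 and 1.86.

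GPX4 was the one long-lived member listed with a shorter half-life in male cells, 25.1 against 37.0 h. Relative to genes of like half-life, CAT (−0.22), GPX3 (−0.01) and NQO1 (−0.37) also had log2 ratios below 0. The log2 ratio of the GPX4 half-life, −0.56, was lower than that of 96.1% of genes, and relative to genes of like half-life it was −1.07, past the threshold. The synthesis rate of GPX4 was 121 in male and 64.3 in young female cells, and the implied level was 1.27-fold higher in male cells. This direction turned relative to genes of like half-life, at −0.08.

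The summed implied level of the 10 chondrocyte markers was 4264190 in male and 1720300 in young female cells, and 9 of the 10 had a higher level in male cells. The 6 listed fibroblast or synovial markers of 7 summed to 394383 in male and 202474 in young female cells, with PRG4 not listed. COL3A1 was at 270464 and 127504 of these. Of the 6, 5 were higher in male cells and PDPN lower, with a median log2 ratio of 1.24, beside 0.01 over all genes. Past the threshold were 4, COL1A1 at 18.3-fold and DPT among them. DPT was absent from the age table, so it too may have been listed only through the male group, where it was higher. It is included in the sum, the median and both counts. Its half-life stood at the upper limit of the listed values in both groups, so its listed ratio lay wholly in the synthesis rate. The 3 listed osteoblast markers of 5 summed to 21616 and 4152, with BGLAP and SP7 not listed. The 5 mural and smooth muscle markers summed to 16272 in male and 21574 in young female cells, with TAGLN lower (10402 against 18141) and ACTA2 at 3326 in male and 117 in young female cells. ACTA2 was absent from the age table, which drew on the same young female samples, so it may have been listed only through the male group, where it was high. FABP4, the only listed adipocyte marker of 3, was at 1679 in male and 593 in young female cells. The chondrocyte, fibroblast and osteoblast sums and FABP4 were higher in male cells together with SOD3, CAT and GPX3, and their part in the result was not tested.

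HMOX1 had a synthesis rate of 5166 in male and 18805 in young female cells, 3.64-fold lower. Its half-life was 3.55 h in male and 3.11 h in young female cells, a log2 ratio of 0.19 that turned to −0.08 relative to all genes. The implied level was 3.19-fold lower in male cells, the 25th lowest ratio of 11249 genes. Under every scaling examined the log2 ratio of the HMOX1 implied level stayed past the threshold, between −1.74 and −1.45. CD14, the only listed leukocyte marker, had an implied level of 3753 in male and 3389 in young female cells. NQO1 had a synthesis rate of 118 against 161 and a half-life of 22.8 against 21.4 h, and its implied level was 1.28-fold lower in male cells. Both haem and quinone enzymes were thus lower in male cells, HMOX1 far more so.

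**Figure D3:**
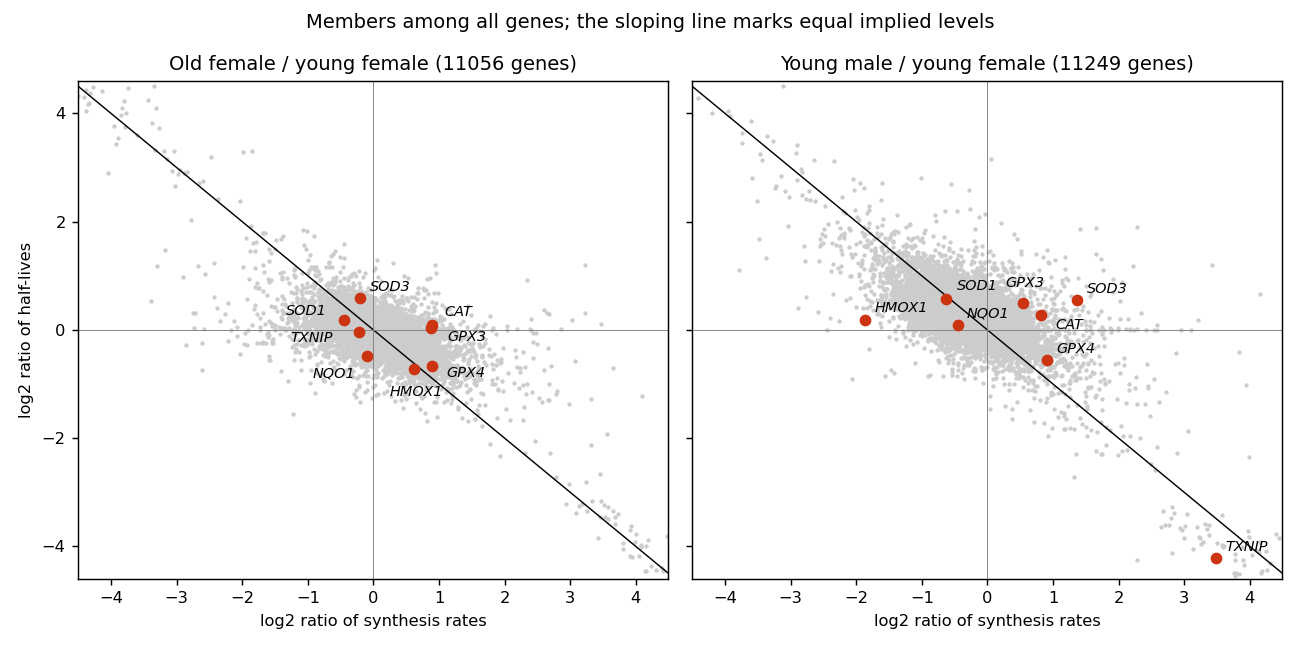
log2 ratio of half-lives against log2 ratio of synthesis rates for all genes of each table (grey) with the 8 members in red; along the sloping line the implied level is equal in both groups, and 121 genes (left) and 110 (right) lie outside the axes. On the right HMOX1 lies far to the left of the line and SOD3 to its right, while TXNIP lies at the far end of the line, among genes with very short listed half-lives.

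TXNIP had the largest listed differences of the 8, at half-lives far under the labelling time. Its half-life was 0.0304 h in male and 0.568 h in young female cells, 18.7-fold shorter. Its synthesis rate was 191543 in male and 17103 in young female cells, 11.2-fold higher. These nearly cancelled, and the implied level was 1.67-fold lower in male cells. On the scale of RNA made within 4 h, the young female value corresponds to 99.2% and the male value to practically all RNA. The direction of the level did not turn under any scaling examined, with log2 ratios between −0.81 and −0.39.

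The male TXNIP half-life fell in a set of values that stood apart. Of the 11249 male half-lives 128 were under 0.1 h, the longest of these being 0.0871 h, and the next gene up was at 0.240 h. Of the 46 genes whose young female half-life in the sex table was 0.5 to 0.7 h, 2 were under 0.1 h in male cells, TXNIP being 1 of them. Such a step also occurred between the 2 estimates of the same young female samples. Of 96 shared genes under 0.1 h in the age table, 62 were listed at 0.5 h or more in the sex table. The family members ARRDC3 and ARRDC4, arrestin-domain proteins related to TXNIP and named after their values were seen, were among them. ARRDC4 was listed at 0.0588 h in one table and 0.722 h in the other, and ARRDC3 at 0.0812 and 0.615 h. Their log2 ratios of half-life in old cells, 3.19 and 2.89, became −0.43 and −0.03 against the estimate of the sex table. The young female values of TXNIP itself did not show this step (0.570 and 0.568 h).

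**Figure D4:**
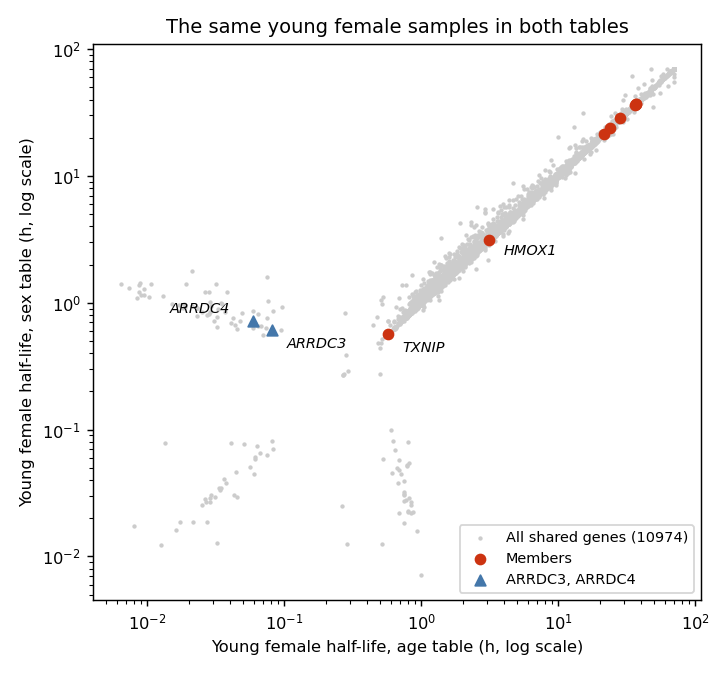
Young female half-life in the sex table against that in the age table, both in hours on log scales, for the 10974 shared genes (grey), the 8 members (red) and ARRDC3 and ARRDC4 (blue triangles). The members lie on the diagonal, whereas ARRDC3 and ARRDC4 lie off it, under 0.1 h in the age table and above 0.6 h in the sex table.

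Beyond the 8 genes, 96 other redox genes in 9 functional subgroups were listed for context, of which 73 were present in each table. In old cells 4 of 73 (5.48%) were past the threshold in half-life, 10 (13.7%) in synthesis rate and 4 (5.48%) in implied level, against 3.53%, 7.52% and 4.12% of all genes. Of the 4 half-life calls, ARRDC3, ARRDC4 and CHAC1 had a half-life under 0.1 h in one group. The half-life count was 2 of 71 with the second young female estimate, 1 of 65 without half-lives under 1 h and 0 of 49 within 1 to 24 h. The synthesis count also holds ARRDC3, ARRDC4 and CHAC1. It was 6 of 65 without half-lives under 1 h and 5 of 49 within 1 to 24 h. NOX4, which was absent from the sex table, is in the synthesis and level counts. The median log2 ratio of half-life was −0.19, with 54 of 73 shorter, beside −0.08 and 6973 of 11056 over all genes. In male cells 1 of 73 (1.37%), CHAC1 at 0.0716 h, was past the threshold in half-life, 9 (12.3%) in synthesis rate and 1 (1.37%) in implied level. The median log2 ratio of level over these genes was 0.13, with 47 of 73 higher (5680 of 11249 over all genes), and −0.01 relative to genes of like half-life. Over all genes the shares in male cells were 7.58%, 12.2% and 4.61%.

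Of the 10 genes of the NRF2 control subgroup, which includes NFE2L2, 8 were listed, and 0 were past the threshold in either comparison. NFE2L2 itself, named with KEAP1 for its role and after values were seen, had half-lives of 1.10 h in young female, 0.962 h in old and 1.19 h in male cells. Its implied level was 7345 in young female and 5180 in male cells, and 7694 and 7531 in young female and old cells. KEAP1, its inhibitor, had implied levels of 6393 in young female and 6581 in male cells. All 8 listed genes of this subgroup had a shorter half-life in old cells, beside 6973 of 11056 over all genes. Relative to genes of like half-life 7 of 8 did, beside 5453 of 10974.

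Genes of glutathione synthesis and recycling were also shorter-lived in old cells, 8 of 8, with a median log2 ratio of −0.51 beside −0.08 over all genes. The count was also 8 of 8 relative to genes of like half-life, beside 5453 of 10974. SLC7A11, the cystine importer that feeds glutathione synthesis, had a synthesis rate of 14.3 in old and 30.9 in young cells and a half-life of 7.61 against 11.2 h. Its implied level was 3.19-fold lower in old cells. SLC3A2, its partner chain, had instead a synthesis rate 2.19-fold higher in old cells. CHAC1, which degrades glutathione, had an implied level 3.48-fold higher in old cells, but its half-life of 0.0312 h there lay in the set of values under 0.1 h described for TXNIP.

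In male cells 5 of 9 listed genes of glutathione synthesis and recycling had a lower implied level, as did 5 of 15 of the thioredoxin, glutaredoxin and peroxiredoxin systems, or 10 of 15 relative to genes of like half-life. Over all genes 5569 of 11249 levels were lower, or 5484 of 10974 relative to genes of like half-life. Synthesis rates were lower for 7 of 9 and 12 of 15, beside 8002 of 11249 over all genes. Past the threshold in synthesis rate were 3 of 9 and 3 of 15, each with 1 higher and 2 lower, against 12.2% of all genes. GCLM, the regulatory subunit of the first enzyme of glutathione synthesis, had a synthesis rate of 170 in male and 362 in young female cells, and an implied level 2.02-fold lower. Relative to genes of like half-life its log2 ratio of level was −0.94, under the threshold. GSR, which regenerates glutathione, had a synthesis rate 2.53-fold lower in male cells, and TXNRD1, which regenerates thioredoxin, one 2.46-fold lower. PRDX3, the mitochondrial peroxiredoxin, had a synthesis rate 2.16-fold lower. Relative to genes of like half-life these 3 log2 ratios were −0.97, −0.89 and −0.73, all under the threshold. Their implied levels, with log2 ratios of −0.74, −0.81 and −0.53, were not past it.

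The 9 listed glutathione transferases and further peroxidases all had higher implied levels in male cells, with a median log2 ratio of 0.55. Relative to genes of like half-life 6 of 8 were higher, with a median of 0.30. GPX7, 1 of the 9, was listed in the sex table only, at 194 in male and 116 in young female cells. It may have been listed there only through the male group, where it was higher. GSTK1, a mitochondrial and peroxisomal transferase, had a synthesis rate of 9.34 in male and 3.81 in young female cells, and of 8.03 in old and 3.99 in young female cells.

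BLVRA is the reductase that acts on the biliverdin made by haem oxygenase. In old cells it had the highest ratios of synthesis rate and implied level in its subgroup, and the lowest of half-life. Its synthesis rate was 51.6 in old and 10.3 in young cells and its half-life 11.3 against 25.5 h, for an implied level 2.21-fold higher. TXNRD2, the mitochondrial thioredoxin reductase, had a synthesis rate 2.28-fold lower in old cells. NOX4, an oxidase that produces hydrogen peroxide, had a synthesis rate of 67.3 in old and 10.8 in young cells with half-lives of 5.86 and 4.71 h. Its implied level was 568 in old and 73.4 in young cells, 7.75-fold higher. NOX4 was listed in the age table only, although the sex table drew on the same young female samples. It may therefore have been listed there only through the old group, where it was high, in which case the size of its ratio follows from being listed.

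**Figure D5:**
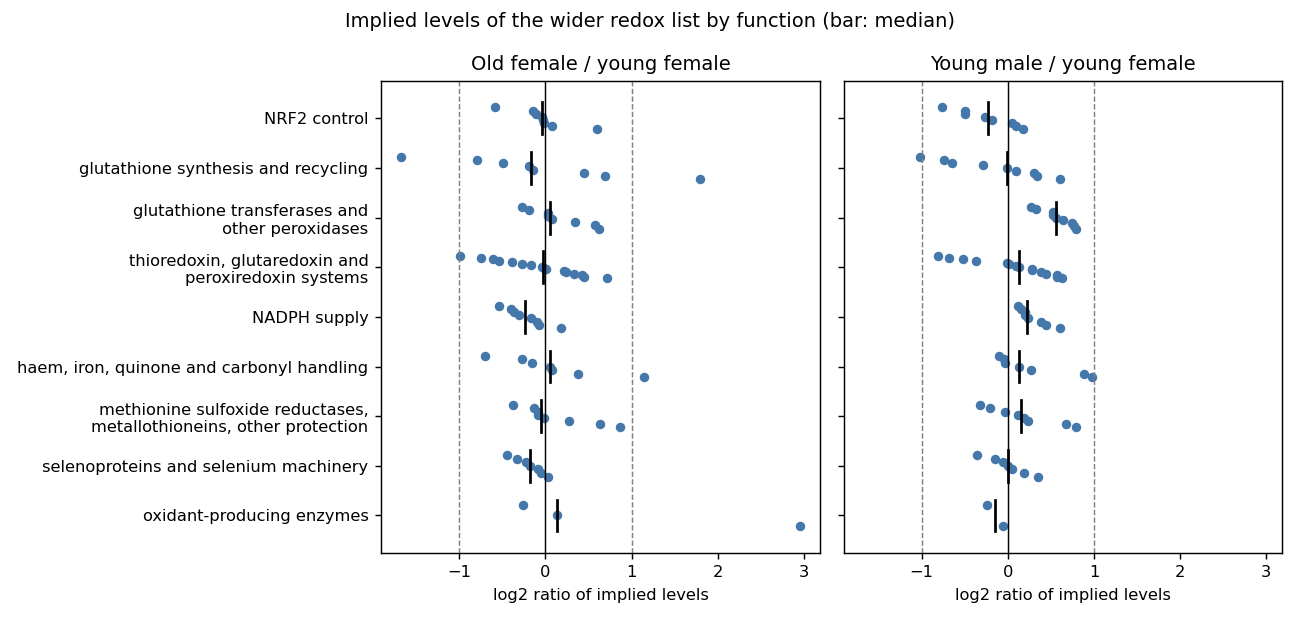
log2 ratio of implied levels of the wider redox list by functional subgroup, old female over young female (left) and young male over young female (right); each point is 1 gene, the upright bar is the subgroup median and dashed lines mark a 2-fold difference. NOX4 lies farthest to the right in the left panel, and the 9 transferases and peroxidases all lie above 0 in the right panel.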

How the data were processed

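RNA of 13 chondrocyte cultures was alkylated for 15 min after 4sU labelling, and libraries were strand-specific and poly(A)-selected, per the labels' protocols. The submitters' processing notes name cutadapt 4.5, STAR 2.5.3 and the build EquCab3.0; the kinetic model, annotation, gene filter and way of combining replicates were not given in the sources used here. The authors deposited 2 tables with a synthesis rate and a half-life per gene and group, per the file headers, with no unit. The group headed "Young" was read as young female, from the sample labels. Half-lives were read as hours, which is an assumption. They stop at 69.3, a decay rate of 0.01 per unit of time, whichever unit was used.

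Log2 ratios were taken within a table with no pseudocount, filter or test, using Python 3.11.15, numpy 2.4.6 and pandas 2.3.3, and were checked on simulated data. Tests had been planned for the case of sample values; ratios were described instead. "Genes of like half-life" are those of the same of 10 deciles, formed on half-lives of the group outside the ratio. Alternatives were a threshold of 0.5, centring, half-life deciles, the 1 to 24 h range, the upper 75% by implied level, the second young female estimate and, added after seeing the data, removal of half-lives under 1 h. The share of RNA made within 4 h was also added then. The members, gene lists and threshold were chosen with earlier results of these data known. Named were all listed members, and genes of the wider list past the threshold in implied level, or in another parameter with half-lives of 1 to 24 h. NFE2L2, KEAP1, ARRDC3, ARRDC4, GPX7 and the cell type markers were named outside this rule. Gene symbols were used as the tables give them. Sequences and promoter motifs were not analysed here.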

Additional observations from a re-analysis of the deposited data

How the results depend on the processing

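No paired analysis was possible because the tables hold 1 value per group, and for the same reason no replicate could be left out. Counts of the 8 genes were taken as moved when they changed by more than 1.5 times. In old cells the counts of 0 became 3 in half-life, 4 in synthesis rate and 3 in implied level at a threshold of 0.5, and the level count became 1 with the second young female estimate. In male cells a threshold of 0.5 gave 4 for half-life (from 1) and 7 for synthesis rate (from 3), where 31.8% and 41.1% of all genes passed. Half-life deciles gave 2 for half-life and 2 for implied level (from 4). No share of all genes past the threshold is given under deciles, restrictions by half-life or level, or the second young female estimate. The same holds for half-life under centring. Counts under these settings, in any section, cannot be set against such a share. Centring gave 5 for synthesis rate. Restricting both groups to 1 to 24 h left 2 members, with counts of 0 in half-life, 1 in synthesis rate and 1 in implied level. Without half-lives under 1 h the half-life count was 0. Of 144 member ratios under centring, deciles or the other table's values, 8 turned direction and 7 changed side of the threshold, but no ratio past the threshold turned direction.

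For the wider list, the counts of half-life, synthesis rate and level, in this order, were 4, 10 and 4 in old cells. They were 15, 20 and 19 of 73 at 0.5, where 13.4%, 23.0% and 15.6% of all genes passed. They were 0, 5 and 2 of 49 within 1 to 24 h, and 5 and 1 of 61 for synthesis rate and level in the upper 75%. The half-life count was 2 of 71 with the second young female estimate and 1 of 65 without half-lives under 1 h, where the synthesis count was 6. In male cells they were 1, 9 and 1, and 24, 25 and 25 of 73 at 0.5, where 31.8%, 41.1% and 25% of all genes passed. The half-life count was 3 under centring, deciles or the other table's values. It was 0 within 1 to 24 h, in the upper 75% and without half-lives under 1 h, which left 45, 61 and 67 genes. The synthesis count was 5 of 45 within 1 to 24 h and 4 of 61 in the upper 75%, and the level count 0 of 71 under deciles. Of the 9 synthesis calls in male cells 5 were higher and 4 lower, while deciles gave 6 higher and 0 lower. All members but HMOX1 and NQO1 had a half-life outside 1 to 24 h in at least 1 group.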

Other observations

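Half-lives in both tables left a range without genes. In the age table, young female cells had 99 genes under 0.1 h, and no gene lay between 0.0966 and 0.264 h. In old cells 129 were under 0.1 h, with none between 0.0875 and 0.249 h. In the sex table, young female cells had 70 genes under 0.1 h, with none between 0.0990 and 0.268 h. Of the 68 shared genes among these last, 34 were under 0.1 h in the age table too, and 32 were at 0.5 h or more there. In the age table, 13 of the 61 genes with a young female half-life of 0.5 to 0.7 h were under 0.1 h in old cells.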
